A study of Homo sapiens with 33 samples.

Results

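Complement is a cascade of secreted proteins, membrane regulators and receptors. The 9 complement genes described here were followed over 6 cell lines, under palbociclib and after its removal. C3, CFB, CFD, C1R and C1S encode components, and CFI, CD46, CD55 and CD59 encode regulators. They were taken by gene name, 9 of the 58302 genes in the expression matrix, and were chosen by name with results of these libraries already known. The palbociclib change of C3 in CP20M was among those results and is given as a description with no test. The calls of the other genes also describe these libraries and are no independent evidence. All 9 had at least 100 CP20M (counts per 20000000 reads, the authors' unit) in at least 1 library, the threshold for being tested.

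The study asked how malignant pleural mesothelioma (MPM) cells respond to palbociclib, an inhibitor of the cell cycle kinases CDK4 and CDK6. H2052, H2452, H28 and MSTO-211H were MPM lines sensitive to the drug. The resistant lines were MPP89, which is MPM with mutated RB1, and MeT-5A, mesothelial cells immortalized by SV40. Cells were kept for 9 or 10 days in 1 µM palbociclib or in 0.1 % DMSO, as pairs of libraries from the same experiment (2 pairs of H2052 and MPP89, 3 pairs of H2452, H28 and MSTO-211H, 1 pair of MeT-5A), which gave 11 sensitive and 3 resistant pairs. In 1 experiment per sensitive line, palbociclib was also washed out for 48 h, and 1 MeT-5A library was untreated, so the total was 33 libraries. The experiments with washout were those of 10 days, and all other pairs, the resistant ones among them, were of 9 days. Each line stands for a single tumour or a single immortalized culture, and RNA was measured in bulk, so a larger share of expressing cells and more RNA per expressing cell cannot be told apart.

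Complement can start from antibody (classical pathway), from sugars (lectin pathway) or by its own slow turnover (alternative pathway). All routes cleave C3, whose fragments tag a surface and lead to the membrane attack complex, and regulators on host cells stop this. The liver makes most complement in plasma, but many other cells make components locally. The hepatocyte markers ALB, APOA1 and TTR were at 0 to 6 CP20M in every library. In the sensitive lines, AHSG reached at most 7 CP20M and APOB at most 3. In MPP89, APOB had palbociclib changes of 0.72 and -0.64 on the log2 scale in the pairs, in opposite directions. Of the leukocyte markers, CD3E was listed at 0 throughout and PTPRC reached 42 CP20M, while CD14 ranged from 0 to 1130 CP20M and was highest in H2452. Mesothelial markers differed by line: MSLN ranged from 1 to 15 CP20M in H28 and from 3513 to 6853 in H2052, and WT1 was at 0 to 2 CP20M in MeT-5A. The markers of a line also went different ways. In the DMSO library of the H28 washout experiment, KRT19 had 4877 CP20M, LRRN4 524, WT1 330 and UPK3B 62. MSLN and HAS1 had 9 CP20M there, PDPN 4 and CALB2 0. KRT19 had 6 CP20M in the same kind of library of MSTO-211H.

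Promoter sequences are shown for those genes called higher over the sensitive lines for which a window was found, to give the bases around an annotated start site. Which start site was used in these cells was not measured. They are RefSeq windows (GRCh38.p14) of 300 bases, 250 before the start and 50 from it on, and such windows were found for 7 of the 9 genes, all but C3 and C1S. Both are on the minus strand, 5′ to 3′: CFI at chr4:109801950-109802249 and the outermost of the 4 CD59 windows at chr11:33736430-33736729. Capitals in CFI mark the C/EBP form TTNNGNAA, searched on both strands, and in CD59 they mark the STAT form TTCNNNGAA (GAS).
CFI: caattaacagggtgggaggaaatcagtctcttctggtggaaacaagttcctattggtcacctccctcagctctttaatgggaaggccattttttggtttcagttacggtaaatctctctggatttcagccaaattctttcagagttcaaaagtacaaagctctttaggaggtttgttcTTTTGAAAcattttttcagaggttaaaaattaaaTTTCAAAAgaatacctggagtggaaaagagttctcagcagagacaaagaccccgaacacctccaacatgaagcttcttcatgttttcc
CD59: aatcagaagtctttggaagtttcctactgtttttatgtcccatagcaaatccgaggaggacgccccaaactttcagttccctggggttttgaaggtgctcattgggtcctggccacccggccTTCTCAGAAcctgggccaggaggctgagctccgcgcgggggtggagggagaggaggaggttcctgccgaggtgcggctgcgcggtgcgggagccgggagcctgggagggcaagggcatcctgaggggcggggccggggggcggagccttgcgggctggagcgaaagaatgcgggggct
The CFI window held the C/EBP form at bases 179 to 186 and 213 to 220, and 36.8% of the 35116 windows of this length hold it at least 1 time. The CD59 window held the GAS form at bases 123 to 131, and 7.66% of windows hold it. The ISRE core (3.57% of windows), the AP-1 form TGANTCA (7.71%) and the NF-kB consensus (11.3%) were also searched on both strands and had no match in these 2 windows. Other CD59 windows differed: that starting at base 33722678 of chromosome 11 held 3 AP-1 matches, and that at 33722900 held 2 of the C/EBP form. A match is a description of letters and says nothing on binding.

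In control libraries, the line means of CD46 spanned 0.75 on the log2(CP20M + 10) scale and those of C1S 6.36. C3, the central component (ENSG00000125730, chromosome 19 from 6677704 to 6730562 in GENCODE 44 of GRCh38, minus strand), was at 5429, 14476 and 6083 CP20M in H2452. MPP89 had 1796 and 3653 CP20M and H28 had 213, 1670 and 976. MSTO-211H had 682, 822 and 398 CP20M and H2052 had 151 and 337. MeT-5A had 50 CP20M in DMSO and 238 untreated. H2452 lay above all other control libraries, whereas H28 overlapped MSTO-211H and H2052. The line means of C3 spanned 6.00 on the log2 scale, and 7.03 without the untreated MeT-5A library or 5.05 without the DMSO one. AC008760.2 shares 11.7% of the exonic length of C3 on the same strand and reached at most 44 CP20M.

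C1R and C1S are the proteases that C1q activates in the classical pathway, and they lie side by side on chromosome 12 on opposite strands (C1S, ENSG00000182326, 6988259 to 7071032, plus strand, and C1R, ENSG00000159403, 7080214 to 7092540, minus strand). C1S was highest in H2452, at 9324 ± 1556 CP20M (SD, n = 3), then 2606 ± 84.1 in MPP89 (n = 2) and 1446 ± 388 in H2052 (n = 2). It was at 581 ± 26.9 in the control libraries of MeT-5A (n = 2), 486 ± 297 in MSTO-211H (n = 3) and 103 ± 8.02 in H28 (n = 3). MPP89 did not overlap its neighbours in this order, whereas MSTO-211H and MeT-5A did. C1R had another order, with 2986 ± 128 CP20M in MPP89 (n = 2), 2116 ± 876 in H2452 (n = 3), 1132 ± 327 in H2052 (n = 2), 1045 ± 76.4 in MeT-5A (n = 2), 622 ± 348 in MSTO-211H (n = 3) and 43.0 ± 7.81 in H28 (n = 3). H28 was below every other line for both genes.

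CFB, the protease of the alternative pathway convertase (ENSG00000243649, chromosome 6 from 31945650 to 31952086, plus strand), was at 2189 ± 975 CP20M in H2452 (SD, n = 3) and 648 ± 51.6 in MPP89 (n = 2). It was at 388 ± 301 CP20M in H2052 (n = 2), 178 ± 68.6 in MeT-5A (n = 2), 102 ± 24.0 in H28 (n = 3) and 64.3 ± 13.0 in MSTO-211H (n = 3). The readthrough AL645922.1 shares 42.3% of the exonic length of CFB on the same strand. It has its own values, from 1328 to 3143 CP20M in the DMSO libraries of H2452. How shared reads were assigned is not given in the sources used here, so the CFB level is uncertain. CFD, which cleaves CFB (ENSG00000197766, chromosome 19 from 859453 to 867884, plus strand), was low everywhere, from 42 CP20M in a H28 library to 171 in a MSTO-211H library, and 14% of its exonic length lies opposite MED16.

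CFI, the soluble protease that cuts C3b and C4b (ENSG00000205403, chromosome 4 from 109731008 to 109802150, minus strand), split the lines. It was at 529 and 888 CP20M in MPP89, 638, 502 and 229 in MSTO-211H and, in MeT-5A, 183 in DMSO and 134 untreated. H2052 had 4 and 7 CP20M, H2452 had 0, 13 and 0, and H28 had 0, 0 and 2. In the libraries with a depth estimate, 1 read is worth up to 1.57 CP20M, so these last values are a few reads.

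The membrane regulators protect cells from their own complement. CD46, a cofactor of CFI (ENSG00000117335, chromosome 1 from 207752037 to 207795513, plus strand), was the most even of the 9 genes, from 2056 to 4370 CP20M over all DMSO libraries, and 5.14% of its exonic length lies opposite C1orf132. CD55, which breaks up the convertases (ENSG00000196352, chromosome 1 from 207321519 to 207386804, plus strand), ran from 192 ± 37.5 CP20M in H28 (SD, n = 3) to 4106 ± 285 in MPP89 (n = 2). CD59, which blocks the membrane attack complex (ENSG00000085063, chromosome 11 from 33703010 to 33736479, minus strand), ran from 1455 ± 241 CP20M in H28 (SD, n = 3) to 13466 ± 3571 in H2452 (n = 3). Its H2052 libraries, at 9175 and 8472 CP20M, lay below those of H2452, and neither line overlapped the others.

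Per kilobase of exons, which allows genes to be compared, CD59 had the highest mean level of the 9 genes in DMSO in H2052 (836 CP20M per kilobase), H2452 (1276) and MSTO-211H (464), and also in the MeT-5A DMSO library (283). In H28 the highest was CD46, at 244 CP20M per kilobase, and in MPP89 it was C1R, at 515. CFI in H28 was the lowest, at 0.125 CP20M per kilobase. After palbociclib, H2452 had 2849 CP20M per kilobase of C1S, which ranked 127 to 145 among 19708 protein-coding genes in its 3 libraries, and 1866 of C3. Lengths are those of merged exons in GENCODE 44, not of the isoforms expressed.

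**Figure D1:**
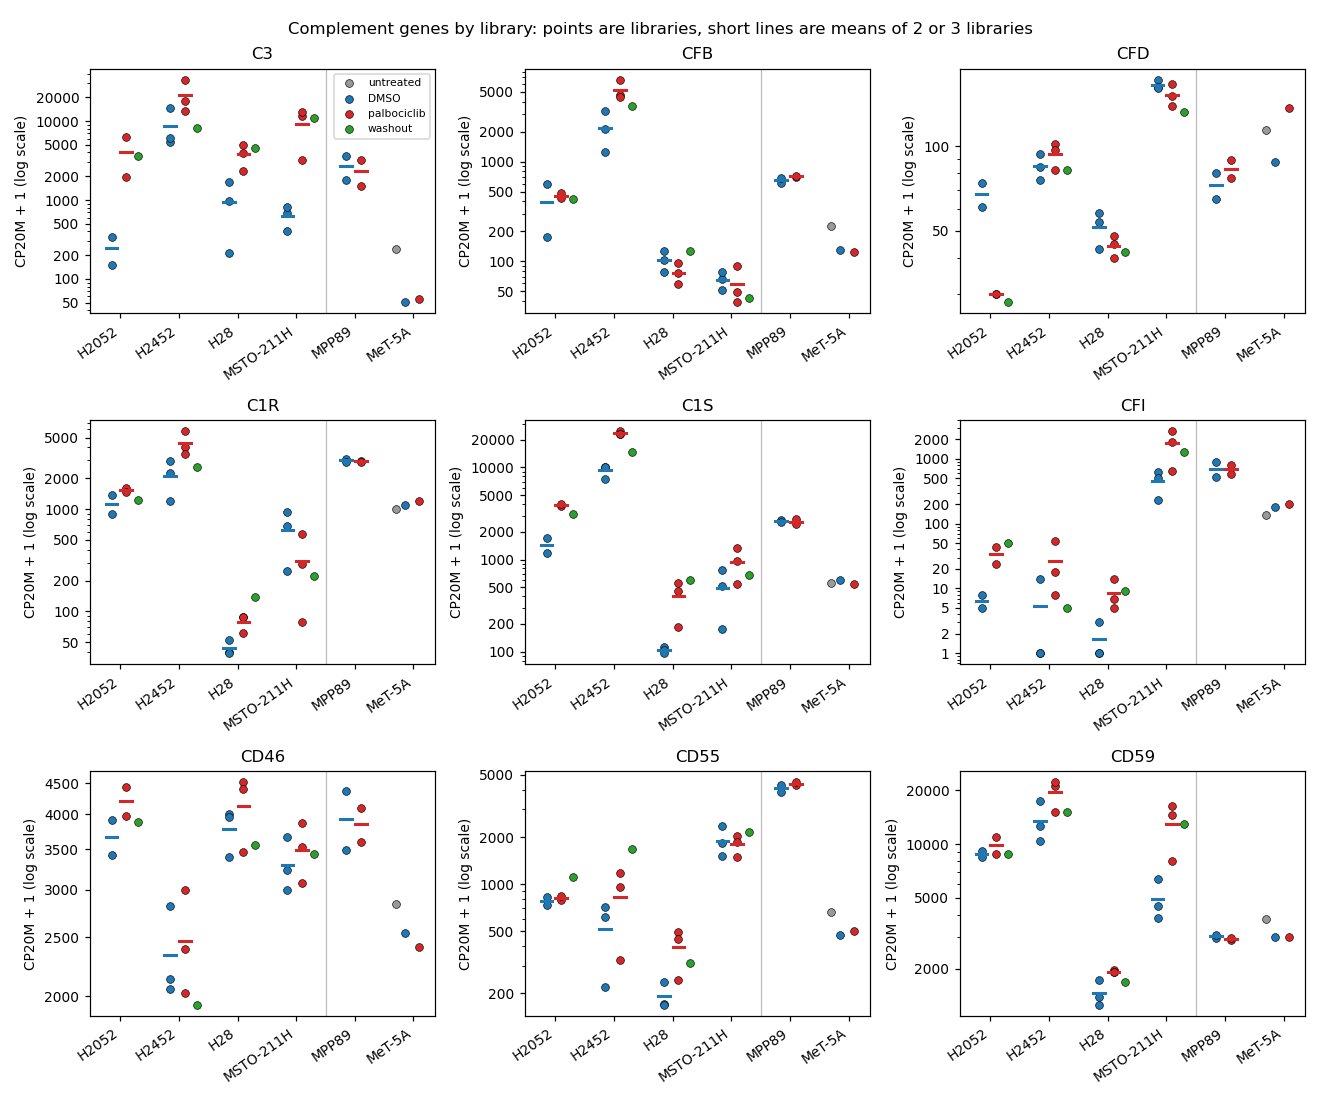
Level of each of the 9 complement genes in every library (CP20M + 1, log axis) by line and condition, with means of 2 or 3 libraries as short lines. C3 in palbociclib lies above DMSO in each sensitive line except for an overlap in H2452, while MPP89 and MeT-5A, right of the grey line, show DMSO and palbociclib close together.

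C1S, CFI and CD59 were called higher under palbociclib over the sensitive lines, and none of the 9 genes was called lower. C3 was also higher, which is given as a description. Called means a fold change above 1.5 and an FDR under 0.05 in limma over all 17803 genes tested. By this rule 5.58% of all genes were called up and 9.37% down. With median-of-ratios scaling the median change of all genes moved from -0.11 to 0.06, and the share of calls that were up moved from 37.3% to 65.7% (62.9% with upper-quartile scaling). The median log2 change was 0.43 for the 9 genes and -0.11 for all genes tested. C3 was higher in 11 of 11 pairs, with a log2 change of 2.71 (SE 0.34), and in DMSO its sensitive libraries ran from 151 to 14476 CP20M with a median of 822, against 1950 to 33449 with a median of 6220 in palbociclib.

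In the pairs, the C3 fold on the CP20M + 10 scale was 12.2 and 18.0 in H2052 and 3.32, 2.31 and 2.19 in H2452. H28 pairs had folds of 10.4, 2.99 and 4.06, and those of MSTO-211H had 4.67, 13.8 and 31.5. It was lowest in H2452, the line that started highest. H2452 still reached the highest level, with 18040, 33449 and 13313 CP20M. H2052 had 1950 and 6220 CP20M in palbociclib, H28 2317, 5010 and 3995, and MSTO-211H 3222, 11481 and 12848.

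C1S rose by a log2 change of 1.40 (SE 0.21, limma adjusted p = 0.000167), was higher in 10 of 11 pairs, and the F test gave no call for a difference among lines (limma adjusted p = 0.806, where 37.1% of all genes differed). H2052 went from 1172 and 1721 to 3799 and 4003 CP20M, and H2452 from 7528, 10242 and 10202 to 24934, 22890 and 23065. H28 went from 111, 102 and 95 to 456, 182 and 555 CP20M. In these 3 lines no palbociclib library overlapped the DMSO libraries. In MSTO-211H, 765, 520 and 174 CP20M became 544, 1331 and 961, lower in experiment 1 and higher in the others.

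CFI rose by 1.28 on the log2 scale (SE 0.23, limma adjusted p = 0.000626) and was higher in 11 of 11 pairs. MSTO-211H, the sensitive line with the highest level, went from 638, 502 and 229 to 661, 2704 and 1827 CP20M. In the fit of MSTO-211H alone, CFI was not called (1.8, limma adjusted p = 0.121). H2052 went from 4 and 7 to 23 and 42 CP20M, H2452 from 0, 13 and 0 to 17, 54 and 7, and H28 from 0, 0 and 2 to 6, 13 and 4. In the last 3 lines all values stayed under the test threshold of 100 CP20M, and the size of the CFI change ranged from 0.74 with a pseudocount of 50 to 2.42 with a pseudocount of 1.

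CD59 rose by 0.66 (SE 0.14, limma adjusted p = 0.00199) and was higher in 11 of 11 pairs, but by unequal amounts among lines (F test, limma adjusted p = 0.00752). MSTO-211H went from 4469, 3851 and 6391 to 16468, 7985 and 14510 CP20M without overlap. H2452 went from 12573, 17399 and 10426 to 21148, 22260 and 15109, H28 from 1388, 1255 and 1723 to 1952, 1904 and 1904, and H2052 from 9175 and 8472 to 10932 and 8824. Leaving out experiment 1 of MSTO-211H gave 0.54 and no call, because the fold then fell under 1.5. The call was also lost without MSTO-211H and with line means in place of pairs.

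CD55 missed the fold threshold, with 0.43 (SE 0.15, limma adjusted p = 0.0314) and higher values in 9 of 11 pairs. Rescaling by median of ratios (0.63) or upper quartile (0.60), or leaving out MSTO-211H (0.62), brought a call. H2452 was the line with a call, where 614, 218 and 714 CP20M became 964, 326 and 1176. In H28, 171, 235 and 169 CP20M became 493, 243 and 446. CD46 differed by 0.11 (SE 0.06, limma adjusted p = 0.152) and went from a median of 3395 to 3528 CP20M. CFD differed by -0.22 (SE 0.12, limma adjusted p = 0.156). In H2052 CFD went from 60 and 73 CP20M to 29 and 29, which was a call in that line but was kept in only 1 of 7 alternatives (-0.73 with median-of-ratios and -0.68 with upper-quartile scaling, both not called). Its change differed among lines (F test, limma adjusted p = 0.0105), a call lost without experiment 2 of H2052 (limma adjusted p = 0.0796).

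CFB and C1R had no call over the sensitive lines. CFB differed by 0.30 (SE 0.24, limma adjusted p = 0.318), higher in 5 and lower in 6 of 11 pairs, and by unequal amounts among lines (F test, limma adjusted p = 0.0234). In H2452 it went from 1238, 3186 and 2142 to 4671, 6624 and 4475 CP20M without overlap, and the readthrough AL645922.1 there went to between 4879 and 6610. In H28 CFB went from 77, 103 and 125 to 75, 94 and 58 CP20M. Without H2452 the pooled CFB change was -0.10.

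C1R differed by 0.28 (SE 0.35, limma adjusted p = 0.531), higher in 9 of 11 pairs. H2452 went from 1189, 2930 and 2229 to 4073, 5796 and 3469 CP20M, and H28 from 52, 39 and 38 to 88, 60 and 87. H2052 went from 900 and 1363 to 1607 and 1473. MSTO-211H went from 933, 687 and 246 to 78, 571 and 289, and the pooled value turned on experiment 1: without that pair the change was 0.65 (limma adjusted p = 0.0049) and C1R was called. The neighbouring C1RL, which shares 11.6% of the exonic length of C1R on the same strand, went from 1074 to 292 CP20M in that same pair.

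**Figure D2:**
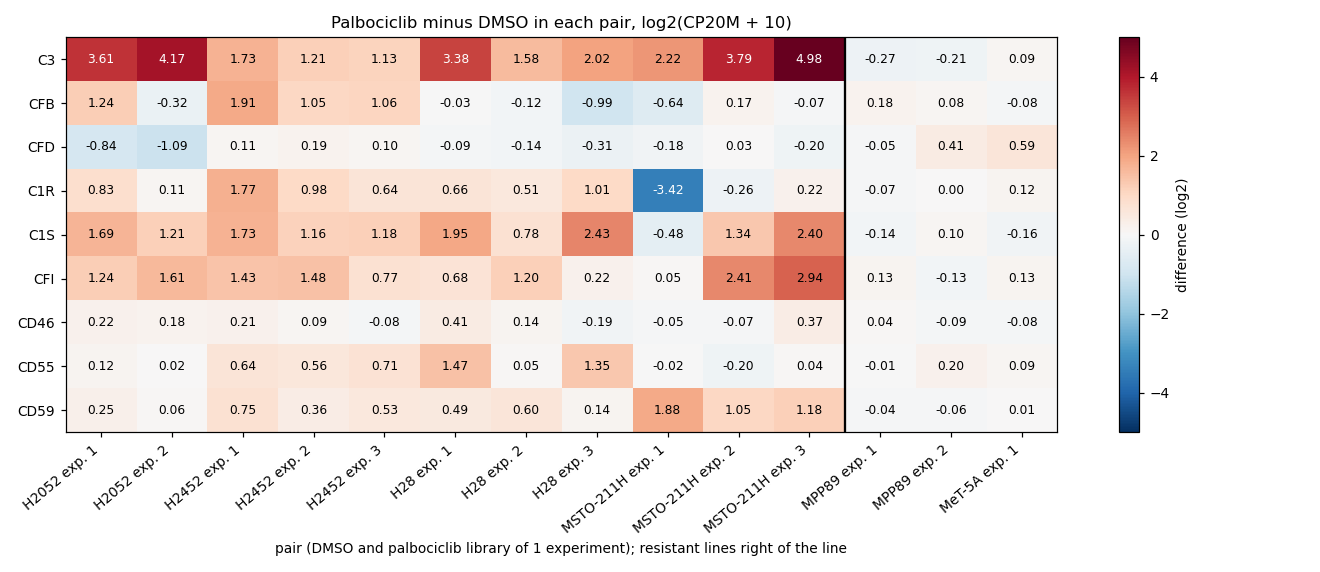
Difference of palbociclib minus DMSO on the log2(CP20M + 10) scale for each of the 14 pairs (columns) and 9 complement genes (rows), red higher and blue lower. The C3 row is positive in all 11 sensitive pairs, from 1.13 to 4.98, and the lowest value is C1R in MSTO-211H experiment 1, at -3.42.

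Because C1R and C1S work as a complex, their ratio was looked at, after the values had been seen and without a test. CP20M were not adjusted for exonic length (8295 bases for C1S, 5803 for C1R), so this is not a ratio of molecules. The C1S to C1R ratio of CP20M in MSTO-211H was 0.82, 0.757 and 0.707 in DMSO and 6.97, 2.33 and 3.33 in palbociclib. The value of 6.97 was in experiment 1, where both genes were lower in palbociclib, C1R from 933 to 78 CP20M and C1S from 765 to 544. H2052 had 1.30 and 1.26 in DMSO and 2.36 and 2.72 in palbociclib, and H28 had 2.13, 2.62 and 2.5 against 5.18, 3.03 and 6.38. The groups did not overlap in these 3 lines. H2452 started at 6.33, 3.5 and 4.58 and had 6.12, 3.95 and 6.65 in palbociclib. The ratio was higher in 10 of 11 sensitive pairs and in 1 of 3 resistant pairs, where it lay between 0.449 and 0.943. The washout libraries had ratios of 2.56 (H2052), 5.74 (H2452), 4.4 (H28) and 3.09 (MSTO-211H).

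**Figure D3:**
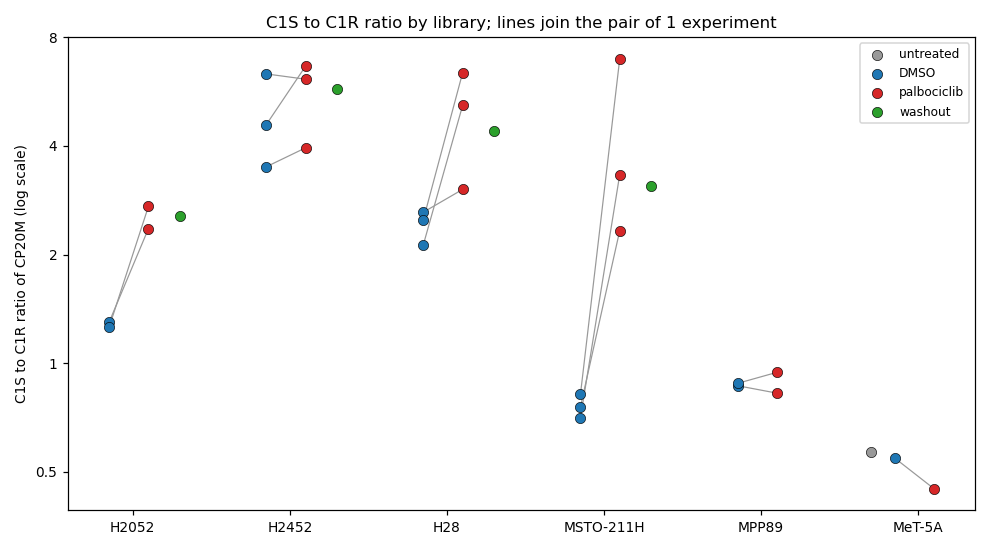
Ratio of C1S to C1R CP20M in each library (log axis) by line and condition, with grey lines joining the libraries of 1 pair. In MSTO-211H the ratio was 0.707 to 0.82 in DMSO and 2.33 to 6.97 in palbociclib, while MPP89 and MeT-5A stayed below 1 in every library.

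In fits of single lines, H2452 had 6 of the 9 genes called up (C3, CFB, CFI, C1R, C1S and CD55), where 6.04% of all genes were called up. CD14 in this line went from 133, 361 and 176 CP20M to 349, 1130 and 284, and CSF1R from 109, 94 and 84 to 53, 57 and 76. Other leukocyte markers were at or near 0 there, with PTPRC and LYZ at 0 to 2 CP20M and CD3E at 0. H2052 had C3, CFI and C1S up and CFD down (4.67% of all genes up, 13.0% down, 17.7% in either direction). H28 had C3, C1R and C1S up (5.89% of all genes up, 7.34% down), and MSTO-211H had C3 and CD59 (5.90% up, 7.94% down). C3 is counted here as a description. Some of these genes stayed under 100 CP20M in the line's fitted libraries: CFI in H2452, CFI and CFD in H2052 and C1R in H28. They were tested because other libraries reached 100 CP20M. For C1R these included the H28 washout library, at 137 CP20M. With the filter applied within the fit, those genes were not tested there. The calls were then 5 in H2452, 2 in H2052 (C3 and C1S) and 3 in H28 (C3, C1S and CD55). Over all genes, 2755 of 13828 tested were called in H2452, 4292 of 14115 in H2052 and 2760 of 14073 in H28. These counts rest on few pairs. With that threshold applied over all libraries, leaving out 1 pair left 0 to 1 calls in H2452 and 0 in H28 and MSTO-211H. Of all genes, those fits called 0 to 1577 in H2452 and 0 in H28 and MSTO-211H. Applied to the fitted libraries alone, the threshold left 5 to 6, 2 to 3 and 2 to 4 calls in these lines. Of all genes, 2162 to 3330, 1364 to 3532 and 1543 to 3444 were then called. C1R in H28 was called in only 2 of the 10 alternatives that tested it.

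In the resistant lines, none of the 9 genes was called by limma, and 0 had an unadjusted p under 0.05, where 1258 of all genes had (0 called, 0% of all genes). The same held in MPP89 alone for calls (0% of all genes), with 1 of the 9 genes and 918 of all genes at an unadjusted p under 0.05. C3 in MPP89 went from 1796 and 3653 to 1488 and 3166 CP20M, lower in both pairs, and in MeT-5A from 50 to 54. C1S in MPP89 went from 2666 and 2547 to 2426 and 2735 CP20M and in MeT-5A from 600 to 537. CD59 in MPP89 went from 2986 and 3076 to 2904 and 2959 CP20M. Each of the 9 genes was at 64 CP20M or more in the DMSO libraries of MPP89.

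The difference of the responses between sensitive and resistant lines was tested itself, and C1S passed (1.46 on the log2 scale, SE 0.43, limma adjusted p = 0.0438), where 1.13% of all genes were called in this direction, 5.62% in the other and 6.75% in either. C3 had 2.84 (SE 0.69), given as a description. CFI had 1.23 (SE 0.47, limma adjusted p = 0.104) and CD59 0.69 (SE 0.29, limma adjusted p = 0.132), and neither was called. Only 3 resistant pairs stand behind this test. Leaving out any 1 of them left C1S not called, and it kept its call in 10 of 22 alternatives.

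After removal of palbociclib for 48 h, C3, C1S, CFI and CD55 were above DMSO in 4 of 4 lines. For CFI this was a few reads in H2452 (4 CP20M, 0 in DMSO) and H28 (8 CP20M, 2 in DMSO). Over the 4 washout experiments, limma called 0 of the 9 genes for washout against palbociclib and 0 had an unadjusted p under 0.05, while 1.40% of all genes were called up and 0% down. Against DMSO, washout was called higher for C1S (log2 change 1.46, SE 0.29, limma adjusted p = 0.0151), where 2.81% of all genes were called up, 2.95% down and 5.76% in either direction. C3 had 2.69 (SE 0.60), given as a description. CFI had 1.33 (SE 0.38, limma adjusted p = 0.0515) and CD55 0.69 (SE 0.22, limma adjusted p = 0.0682), and both just missed. In the same 4 experiments palbociclib against DMSO called C1S (1.80) and CFI (1.39) up, where 5.30% of all genes were called up. C3 had 3.07 there, again as a description. The palbociclib libraries are shared by these comparisons, and so are the DMSO libraries.

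By line, C3 went from 337 CP20M in DMSO to 6220 in palbociclib and 3610 after washout in H2052, and from 6083 to 13313 and 8143 in H2452. In H28 it went from 976 to 3995 and 4611 CP20M, and in MSTO-211H from 398 to 12848 and 10826. C3 was lower after washout than in palbociclib in 3 of 4 lines and higher than in DMSO in 4 of 4. H2452 came nearest to its DMSO level, at 0.42 above it on the log2 scale, against 2.23 to 4.73 in the other lines. C1S was also nearest to its DMSO level in H2452, with 14793 CP20M after washout, 0.54 above DMSO, and farthest in H28, with 603 CP20M, 2.55 above DMSO.

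CD55 was higher after washout than in palbociclib in 3 of 4 lines, reaching 1108 CP20M in H2052 (from 839), 1670 in H2452 (from 1176) and 2167 in MSTO-211H (from 1871), while H28 went from 446 to 314. CD59 in MSTO-211H had 12901 CP20M after washout, against 14510 in palbociclib and 6391 in DMSO. CFI in MSTO-211H had 1290, against 1827 and 229. CFB in H28 went from 58 CP20M in palbociclib to 126, next to 125 in DMSO. CFD in H2052 had 27 CP20M, next to 29 in palbociclib. With 1 washout library per line, the spread between washout libraries of a line is not known, and leaving out H2052, H28 or MSTO-211H left C1S not called against DMSO.

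**Figure D4:**
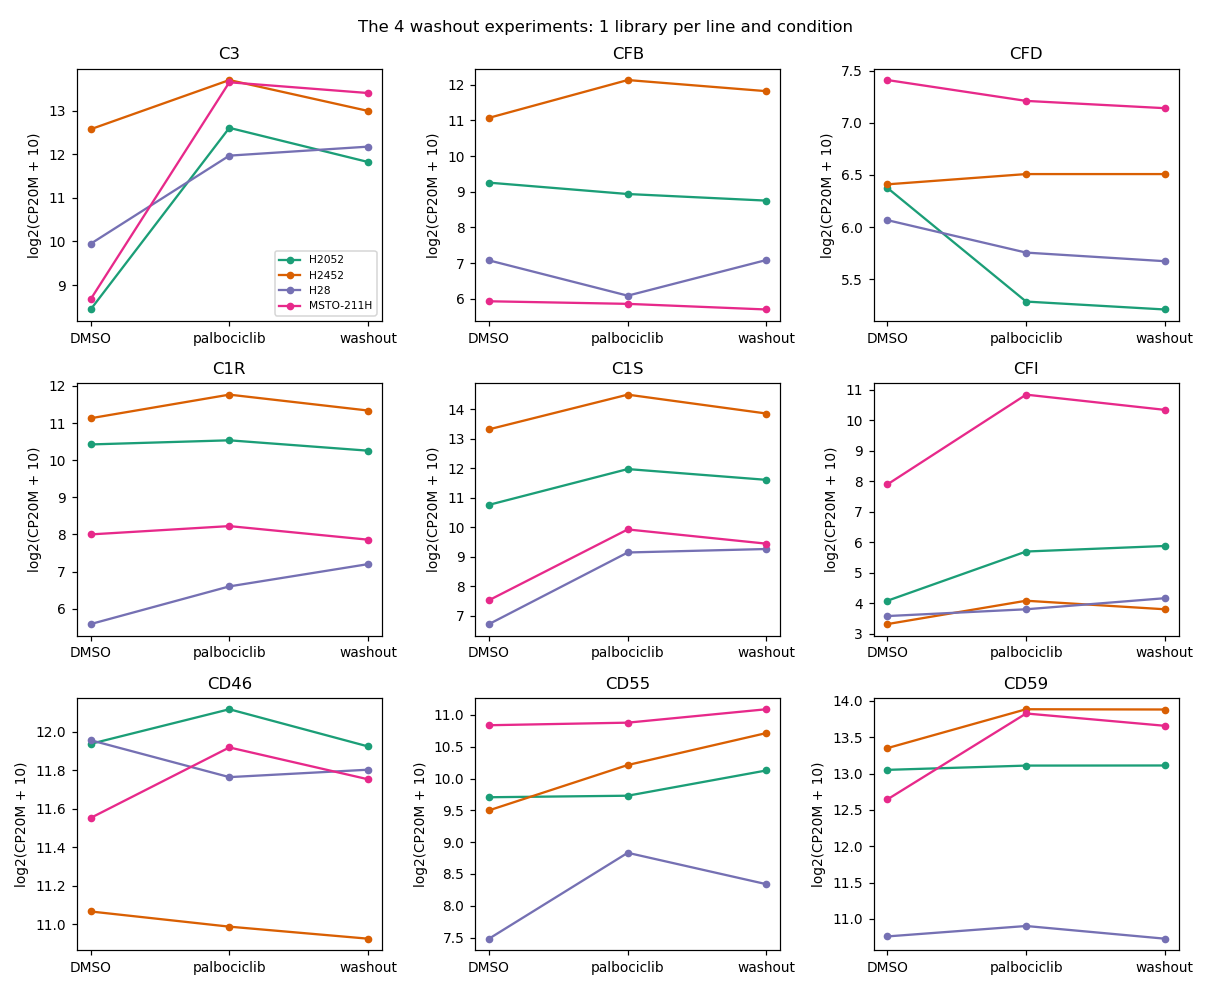
Level of each complement gene on the log2(CP20M + 10) scale in DMSO, palbociclib and washout, with 1 library per line and condition in the 4 washout experiments. C3 and C1S after washout lie above DMSO in 4 of 4 lines, and CD55 is higher after washout than in palbociclib in 3 of 4.

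The rest of the pathway was read from a list of 50 other complement genes, of which 22 were tested and 28 stayed under 100 CP20M. Over the sensitive lines 4 of the 22 were called up and 0 down, where 5.58% of all genes were called up and 9.37% down. The median log2 change of the 22 was 0.34, against -0.11 for all genes tested. SERPING1, C9 and C5AR1 were among those called. This pooled fit called none of the 4 classical pathway genes tested, the 4 lectin pathway genes or the 3 other membrane regulators. In single lines, 9 of the 22 were called up and 3 down in H2452 (6.04% and 10.8% of all genes). H2052 had 5 up and 5 down (4.67% and 13.0%), and H28 had 4 up and 1 down (5.89% and 7.34%). MSTO-211H had 5 up and 0 down (5.90% and 7.94%). These single-line counts rest on few pairs. C1QA, C1QB and C1QC, the recognition subunits upstream of C1R and C1S, which were named after their values were seen, had 0 to 1 CP20M in the sensitive lines.

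SERPING1, the inhibitor of C1R and C1S, rose by 2.18 (SE 0.47, limma adjusted p = 0.00184) from very unequal starting levels. The change differed among lines (F test, limma adjusted p = 0.000301). With line means in place of pairs, SERPING1 was not called. H2052 went from 2592 and 3776 to 8151 and 10153 CP20M, MSTO-211H from 4, 9 and 4 to 134, 352 and 523, and H2452 from 8, 34 and 10 to 99, 228 and 168. H28 had 0, 2 and 10 CP20M in DMSO and 0, 5 and 5 in palbociclib.

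C9, the pore-forming component, rose by 1.03 (SE 0.08, limma adjusted p = 1.6e-06), was higher in 11 of 11 pairs, and was the only other complement gene called between sensitive and resistant lines (1.13, limma adjusted p = 0.00161). H2052 went from 1098 and 1098 to 3059 and 2975 CP20M, and H28 from 48, 89 and 52 to 137, 179 and 124. After washout C9 was still called above DMSO (0.78, SE 0.15, limma adjusted p = 0.0132), a call lost without H2052, H28 or MSTO-211H. C5AR1, the C5a receptor, stayed at 109 CP20M or less, and its call (0.65, SE 0.21, limma adjusted p = 0.0208) was kept in 15 of 24 alternatives.

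C1QBP, a mitochondrial protein that also binds C1q, had the highest control level of the list, a mean of 3124 CP20M. It was lower in 11 of 11 sensitive pairs without passing the fold threshold (-0.56, SE 0.10, limma adjusted p = 0.000707), and it was called lower after washout against DMSO (-0.62, SE 0.15, limma adjusted p = 0.0292), a call kept in 5 of 12 alternatives and lost without any 1 of the 4 lines. CLU, a soluble inhibitor of the membrane attack complex, was next in control level, with a mean of 1857 CP20M. It had 0.52 (SE 0.19, limma adjusted p = 0.0343) and no call over the sensitive lines. C1RL had 0.28 (SE 0.22, limma adjusted p = 0.303).

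**Figure D5:**
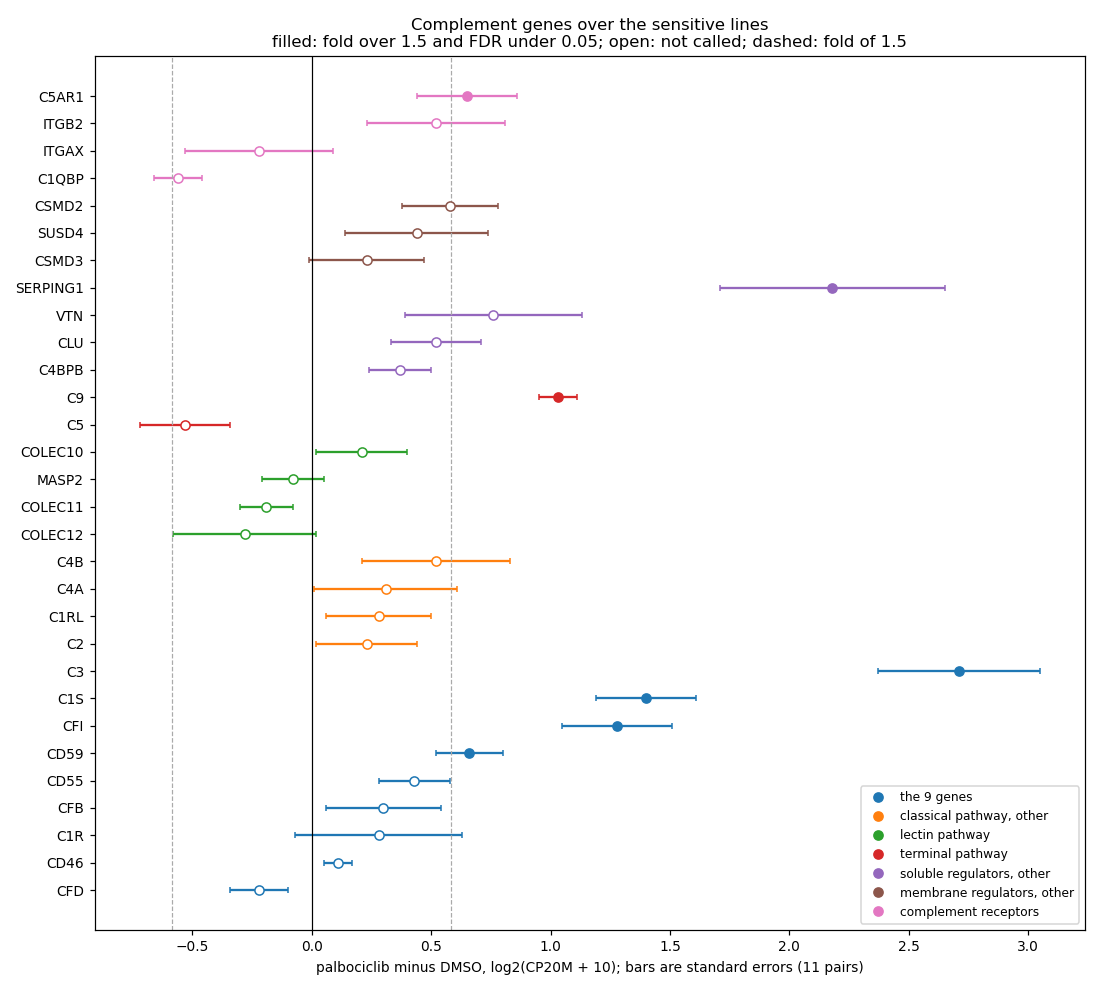
Log2 change of palbociclib minus DMSO over the 11 sensitive pairs for the 9 genes and the other complement genes tested that are reported here, coloured by role, with standard errors as bars and filled points for calls. Filled points are C3, C1S, CFI, CD59, SERPING1, C9 and C5AR1, all to the right of 0, and C3 is shown as a description.

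Genes most like each member were listed by Pearson r, as a description without a test. Over the 33 libraries, which are dominated by the differences among 6 lines, the level of C3 was closest to that of APOL1 (r = 0.880), CFB to the readthrough AL645922.1 (0.995), CFI to C4BPB (0.948), C1R to EFEMP1 (0.941), C1S to MBTPS1 (0.948), CD46 to SLC16A4 (0.912), CD55 to BGN (0.885), CD59 to ABI3BP (0.976) and CFD to AGK (0.931). The 14 pairs hold 11 sensitive and 3 resistant ones, so r for a change also reflects the difference between these classes. Over these pairs, the change of C3 was closest to those of DAPK1 (0.976), DRAM1 (0.948) and PERP (0.937). That of CFI was closest to SAA2 (0.950), SAA1 (0.932) and IFNAR1 (0.893), and of CD59 to PLAT (0.958), CLTB (0.955) and IGFBP4 (0.926). The change of C1S had an r of 0.920 with that of PRKG1 and 0.911 with that of PSAP. For CFB and C1R the closest changes were those of AL645922.1 (0.975) and C1RL (0.959), with which they share exonic bases. SAA1 and SAA2 are near-identical genes, so their values are not separate observations.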

How the data were processed

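The data were RNA-seq of 33 libraries of established cell lines, prepared with a directional kit and sequenced as paired-end reads. The authors trimmed reads with Trimmomatic 0.36, mapped them with STAR 2.5.3 to GRCh38, counted reads per gene with HTSeq 0.9.1 and scaled each library to 20000000 reads (CP20M). The strand setting and mode of the counting are not given in the sources used here. The deposited values are a score of this kind, rounded up to whole numbers, and not counts, so DESeq2, which the authors used, was not run. The column totals, 20007662 to 20021400, do not show depth. The whole numbers that are skipped gave an estimate for 22 libraries (12760000 to 19560000 reads).

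Values were analysed as log2(CP20M + 10) in limma 3.58.1 (R 4.3.3; lmFit, eBayes with trend, two-sided), in genes that reached 100 CP20M in any library, with Benjamini-Hochberg adjustment over all 17803 of them. The pair was a block, as the study paired treated and control cultures, and the line in the washout fits. Deviations of same-numbered libraries from their group means correlated across genes with r from 0.181 to 0.783. The 9 genes and the lists of other complement and marker genes were chosen with earlier results of these data known. All 9 are named throughout, and other complement genes where called over the sensitive lines or in a washout comparison or among the 5 highest in control libraries. The 3 genes most like each of the 9 in level and in change were also listed, and part of these lists is given. A few genes that these rules name are not reported here, but stay in the counts. Alternatives left out the replicate block, the trend in eBayes, the filter, or each pair or line in turn, filtered on the fitted libraries alone, used a pseudocount of 1 or 50, rescaled by upper quartile or by median of ratios, or used line means. Leaving out a pair with the filter within the fit was added after seeing the data. Of the gene IDs, 98.7% matched GENCODE 44. The functions were tested on simulated data. Figures were drawn with matplotlib 3.10.9.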

Additional observations from a re-analysis of the deposited data

Results flagged for a closer look

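The response to palbociclib differed between sensitive and resistant lines, by a test of the difference itself, for C1S (1.46 on the log2 scale) and C9 (1.13). The resistant side was 3 pairs, 2 of MPP89 and 1 of MeT-5A.

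The response differed among the 4 sensitive lines by the F test (limma adjusted p) for SERPING1 (0.000301), CD59 (0.00752), CFD (0.0105), CFB (0.0234), C1QBP (0.0291), C9 (0.0300) and C5AR1 (0.0474). The largest mean change was in MSTO-211H for SERPING1 (4.29) and CD59 (1.37), in H2052 for C9 (1.45), and in H2452 for CFB (1.34). CFD was lowest in H2052 (-0.97). Of the other complement genes tested, 16 of 22 differed among these lines by this test, CLU (0.00928) and C1RL (0.0256) among them, where 37.1% of all genes did.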

How the results depend on the processing

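Over the sensitive lines, CFI and C1S were called in all 24 alternatives, and CD59 in 21. CFI stayed under 100 CP20M in H2052, H2452 and H28. C3 is included in the counts below as a description. Of the values that changed outcome, the numbers of the 9 genes called were as follows. Without the replicate block, which drops the pairing by experiment, 1 was called in H2452 (6 with it), 1 in H28 (3) and 1 in the F test among lines (4). In the washout fits the block was the line, so leaving it out ignored the differences among lines. There 0 were called for washout against DMSO (2) and 0 for palbociclib in the washout experiments (3). With no filter, 0 were called in H2052 (4), H2452, H28, MSTO-211H (2), the class difference (2) and washout against DMSO, and 2 in the F test. In H2052, a pseudocount of 50 gave 2, a filter within the fit 2 and eBayes without trend 0. In H28, a pseudocount of 1 gave 1. The class difference had 1 call with eBayes without trend. Palbociclib in the washout experiments had 5 calls with median-of-ratios and 5 with upper-quartile scaling. The causes were not tested.

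Leaving out 1 pair or line gave 4 to 5 calls over the sensitive lines, 0 to 6 in H2452, 0 to 3 in H28, 0 to 4 in MSTO-211H (4 without pair 1 and with the filter within the fit, which was added after seeing the data), 0 to 2 for the class difference, 2 to 5 in the F test, 0 to 2 for washout against DMSO and 2 to 3 for palbociclib in the washout experiments. Lines with 2 pairs could not be fitted with 1 left.

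Counts over all genes also moved: 2663 over the sensitive lines (1687 to 3186), 3143 in H2052 (0 to 4292), 2993 in H2452 (0 to 3065), 2354 in H28 (0 to 2760), 2464 in MSTO-211H (0 to 3325), 1202 for the class difference (172 to 1435), 6601 in the F test (2612 to 6897), 250 for washout against palbociclib (0 to 263), 1026 for washout against DMSO (0 to 1048) and 3304 for palbociclib in the washout experiments (139 to 3478).

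Changes of sign were among values not called. Without H2452, CFB (-0.10) and C1R (-0.04) turned over the sensitive lines. In H28, CD46 had -0.03 without pair 1. In MSTO-211H, CD55 had 0.11 with median-of-ratios scaling, 0.09 with upper-quartile scaling and 0.01 without pair 2, CFD had 0.05 and 0.03 with these scalings, CFB had 0.05 without pair 1 and CD46 had -0.06 without pair 3. In the resistant lines C1R had -0.01 with upper-quartile scaling and -0.03 without MeT-5A. For washout against palbociclib, median-of-ratios scaling, upper-quartile scaling and leaving out H28 gave CFB -0.04, -0.10 and -0.22 and C5AR1 -0.01, -0.06 and -0.04. CD55 had -0.04 with upper-quartile scaling, and CFI 0.02 without H2452 and 0.09 without MSTO-211H. For washout against DMSO, CFB had -0.01 with a pseudocount of 1 and -0.24 without H2452, CD46 had 0.07 with median-of-ratios scaling, 0.01 without H2452 and 0.02 without H28, and C1R had -0.03 without H28. For palbociclib in the washout experiments, CFB had 0.14 and 0.13 with these scalings and 0.22 without H28, and CD46 had -0.03 without MSTO-211H. Over the same fits, leaving out 1 pair or line gave upper or lower ends of 0.55 for CFB and 0.81 for C1R over the sensitive lines, 0.27 for CD46 in H28, -0.36 for CFB, 0.16 for CD46 and -0.11 for CD55 in MSTO-211H, and 0.06 for C1R in the resistant lines. These ends were -0.20 for CFI and 0.34 for C5AR1 in washout against palbociclib, 0.18 for CFB and 0.56 for C1R in washout against DMSO, and -0.46 for CFB and 0.16 for CD46 with palbociclib in the washout experiments.

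With 2 or 3 pairs a line, single-line calls depend on the spread of few libraries. Values under about 10 CP20M are a few reads. Depth could not be estimated for 11 libraries.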

Other observations

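The untreated MeT-5A library, which enters no treatment comparison, had 238 CP20M of C3, 227 of CFB, 113 of CFD, 991 of C1R, 562 of C1S, 134 of CFI, 2837 of CD46, 666 of CD55 and 3786 of CD59. The MeT-5A DMSO library had 50, 130, 87, 1099, 600, 183, 2544, 472 and 2988 CP20M of these genes in the same order. With 1 library each, no spread is known.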
